A study of Arabidopsis thaliana with 4 samples.

Results

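A set of 10 Arabidopsis thaliana genes of the root endodermis and its Casparian strip was followed through 4 genotypes. They were chosen by locus identifier, with earlier results of these data known: the transcription factors SCR and MYB36, scaffold proteins of the CASP family, among them CASP1, CASP2, CASP4 and CASP5, the dirigent-domain protein ESB1, the peroxidase PER64 and the receptor-like kinase SGN3, which the deposited table lists as GSO1. All 10 were found among the 33557 genes of the table. RNA was sequenced from 1 library each of hho2phr1, a double mutant, of phr1 and hho2-1, single mutants labelled as SALK T-DNA insertion lines, and of Col-0, the wild type and the background of all lines. Every library came from plants kept upright for 7 days on agar-solidified MS medium without phosphate, so no library shows the genes under phosphate supply. PHR1 is a MYB-type activator of the phosphate starvation response, and HHO2 belongs to the HRS1-related GARP transcription factors. The labels do not give the organ harvested, the plants pooled or the age at harvest.

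The Casparian strip is a band of lignin in the wall between neighbouring endodermal cells, which keeps solutes from passing around the cells into the root vasculature. SCR acts in the division that forms the endodermis, and MYB36 activates the genes that build the strip. CASP proteins mark a membrane domain where the dirigent protein ESB1 and the peroxidase PER64 direct the local deposition of lignin, while the kinase SGN3, a receptor of small sulfated peptides, reports whether the barrier is closed. Older endodermal cells add suberin, a lipid polyester.

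The upstream sequences of CASP1 and PER64 are shown because these genes had among the lowest values of the 10, relative to Col-0, in a single mutant. Each run holds the 250 bases before the transcript start in the RefSeq annotation of TAIR10.1, read 5′ to 3′ on the gene's strand. The window of CASP1 lies at chr2:15160800-15161049 on the minus strand and that of PER64 at chr5:16852378-16852627 on the plus strand. Capitals mark the motif GAATC, searched on both strands, which HRS1-related factors are known to bind.
CASP1: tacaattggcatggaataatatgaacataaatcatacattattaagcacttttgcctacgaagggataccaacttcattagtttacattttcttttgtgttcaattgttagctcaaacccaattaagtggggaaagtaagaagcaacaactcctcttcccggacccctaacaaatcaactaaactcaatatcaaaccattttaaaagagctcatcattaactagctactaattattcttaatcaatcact
PER64: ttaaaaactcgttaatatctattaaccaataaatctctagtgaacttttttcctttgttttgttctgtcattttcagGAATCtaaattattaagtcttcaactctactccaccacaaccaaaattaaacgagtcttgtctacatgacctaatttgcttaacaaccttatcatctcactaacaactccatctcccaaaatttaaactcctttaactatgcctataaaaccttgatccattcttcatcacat

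GAATC or its reverse complement was found in 4 of the 10 upstream windows, those of SCR, CASP5, ESB1 and PER64. Among 27438 windows of protein-coding genes on the nuclear chromosomes it was found in 38.9%. The PHR1 binding motif P1BS, spelled GNATATNC and its own reverse complement, was in 0 of the 10 windows, against 5.5% of all windows. These are matches of letters in 250 bases and say nothing of binding.

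The coding sequences of CASP2 and CASP4 are the closest pair among these 4 CASP genes, with 79.8% identical bases and 83.3% identical residues. The other pairs share 55.1% to 65.5% of coding bases and 43.4% to 59.9% of residues. The 60 bases in which CASP2 and CASP4 are most alike are shown because there the pair is hardest to tell apart by sequence. The windows run over coding bases 220 to 279 of CASP2 on chromosome 3 and 214 to 273 of CASP4 on chromosome 5, and capitals mark the 5 bases that differ.
CASP2: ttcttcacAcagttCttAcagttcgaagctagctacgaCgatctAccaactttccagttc
CASP4: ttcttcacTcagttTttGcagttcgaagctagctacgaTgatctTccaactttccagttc

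Even there, no run of 50 bases of either transcript was identical in another annotated transcript. The same held for CASP1, CASP5, SCR, MYB36 and PER64.

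Levels are FPKM, sequenced fragments per transcript length and library depth, as deposited by the authors with a 95% interval for each value. The authors' interval describes the estimate in 1 library and not the spread between plants, and with 1 library per genotype no difference below has a replicate check or a p-value. The FPKM values of a library summed to 1005252 in hho2phr1, 1045585 in phr1, 925633 in hho2-1 and 983614 in Col-0, and the single highest gene held between 11.2% and 17.2% of each sum. Relative to Col-0, the depth used in scaling the values was 0.847 in hho2phr1, 0.823 in phr1 and 0.937 in hho2-1. It was read from the whole-number steps of low values. It equals the depth in fragments only if the authors scaled by that depth, which the sources used here do not say. PHR1 had 6.50 FPKM in hho2phr1, 7.54 in phr1, 43.2 in hho2-1 and 37.7 in Col-0, so the libraries of both lines with the phr1 allele stood apart from the other two. HHO2 has no symbol in the files. Its locus by general knowledge, AT1G68670, had 51.8 FPKM in hho2phr1, 81.2 in phr1, 59.8 in hho2-1 and 90.7 in Col-0.

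All 10 genes were measured in every library, at levels between 4.40 and 81.8 FPKM. Across the 4 libraries, the highest value of a gene was between 1.09 times (CASP2) and 1.46 times (MYB36) the lowest. For every gene and every pair of libraries the authors' intervals overlapped. The range over libraries on the scale of log2(FPKM + 1) had a median of 0.33 for the 10 genes and 0.28 for the 20650 genes with at least 1 FPKM in any library. Within the small ranges, Col-0 held the highest value of 6 of the 10 genes, against 18.1% of all genes. The hho2-1 library held the lowest value of 4 (CASP1, CASP2 and ESB1 among them), against 31.0% of all genes, and phr1 that of 4 others (CASP4, CASP5, PER64 and SGN3), against 22.9%. Rescaled to equal sums, hho2-1 was the lowest for 2 of the 10 genes, and it was the lowest for 2 of the 6 genes that share no interval with another gene. A lower value in such bulk libraries can mean fewer endodermal cells or less RNA per cell, and these cannot be told apart.

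**Figure D1:**
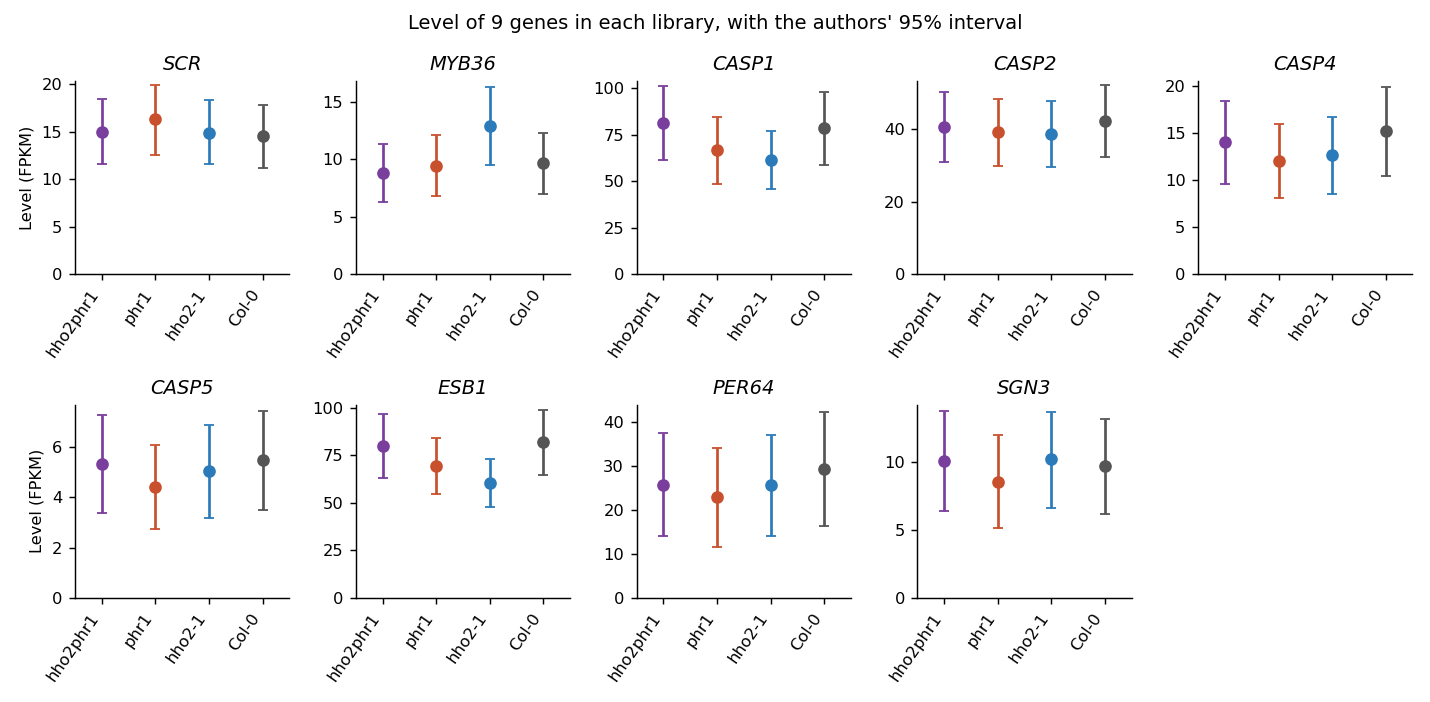
FPKM of 9 of the genes (y axes, from 0, on a scale of their own) in the hho2phr1, phr1, hho2-1 and Col-0 libraries (x axes); points are the deposited values and bars the authors' 95% intervals. The intervals overlap in every panel; CASP1 and ESB1 are lowest in hho2-1, at 61.2 and 60.4 FPKM, where MYB36 is highest, at 12.9 FPKM.

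SCR (AT3G54220, chromosome 3, 20070158 to 20072780 on TAIR10) encodes the GRAS transcription factor that, with SHR, drives the division that forms the endodermis. It had 15.0 FPKM in hho2phr1, 16.3 in phr1, 14.9 in hho2-1 and 14.5 in Col-0. SCR was thus nearly level, highest in phr1 and, alone among the 10 genes, lowest in Col-0. MYB36 (AT5G57620, chromosome 5, 23334817 to 23336566), the activator of the CASP genes, ESB1 and PER64, had 8.80 FPKM in hho2phr1, 9.45 in phr1, 12.9 in hho2-1 and 9.65 in Col-0. The hho2-1 value stood above the other 3, which lay between 8.80 and 9.65 FPKM. The authors' interval for MYB36 ran from 9.51 to 16.3 FPKM in hho2-1 and from 6.99 to 12.3 FPKM in Col-0, so the 2 overlapped.

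The CASP genes are the core of the strip, and their levels differed more between genes than between genotypes. CASP1 (AT2G36100) was the highest of them, with 81.4 FPKM in hho2phr1, 66.6 in phr1, 61.2 in hho2-1 and 78.3 in Col-0. Its deposited interval, 15158561 to 15160750 on chromosome 2, is given to CASP1 and AT2G36090 together. Both single mutants were low, and the double mutant stood close to Col-0. CASP2 (AT3G11550, chromosome 3, 3638195 to 3639197) was the flattest gene, with 40.5 FPKM in hho2phr1, 39.1 in phr1, 38.6 in hho2-1 and 42.1 in Col-0.

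CASP4 and CASP5 were lowest in phr1 and not in hho2-1. CASP4 (AT5G06200, chromosome 5, 1877333 to 1878116) had 14.0 FPKM in hho2phr1, 12.0 in phr1, 12.6 in hho2-1 and 15.2 in Col-0. CASP5 (AT5G15290, chromosome 5, 4967011 to 4968035), the least abundant of the 10 genes, had 5.32 FPKM in hho2phr1, 4.40 in phr1, 5.03 in hho2-1 and 5.47 in Col-0. In CASP1, CASP2, CASP4 and CASP5 both single mutants were below Col-0 and the double mutant was above both single mutants.

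ESB1 and PER64 act where the lignin is laid down. ESB1 (AT2G28670) had 79.8 FPKM in hho2phr1, 69.2 in phr1, 60.4 in hho2-1 and 81.8 in Col-0. As for CASP1, both single mutants were low, hho2-1 the lower. Its authors' interval ran from 47.7 to 73.2 FPKM in hho2-1 and from 64.7 to 98.9 FPKM in Col-0. The deposited interval, 12300203 to 12302358 on chromosome 2, is given to ESB1 and AT2G28671 together. AT2G28671 is annotated on the opposite strand over the whole of the ESB1 transcript. The authors' tool gave that gene at most 0.186 FPKM in any library. PER64 (AT5G42180) had 25.8 FPKM in hho2phr1, 22.9 in phr1, 25.7 in hho2-1 and 29.5 in Col-0. It was lowest in phr1 and highest in Col-0. Its interval overlaps ASK2, a gene of the SKP1 family on the opposite strand with 127 to 147 FPKM, and the authors' interval around PER64 was the widest of the 10, 44.0% of the value to each side in Col-0.

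SGN3 (AT4G20140) had 10.1 FPKM in hho2phr1, 8.56 in phr1, 10.2 in hho2-1 and 9.70 in Col-0, so only phr1 was below Col-0. The deposited interval, 10884197 to 10889597 on chromosome 4, is given to SGN3 and AT4G20150 together. AT4G20150 is on the opposite strand, with 164 to 218 FPKM, and 6.8% of the runs of 50 bases of SGN3 are shared with it. AT2G36090, which shares the interval of CASP1, has 17.3 to 27.4 FPKM and was lowest in hho2-1 too. The sources used here do not say whether strand was used in counting, so the values of ESB1 and SGN3 are uncertain by the reads their opposite-strand neighbours may share. For CASP1 and PER64 the deposited interval is shared with a neighbour, but no run of 50 bases of their annotated transcripts is shared.

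The comparison of phr1 with Col-0 asks what goes with the phr1 allele under phosphate deprivation. In phr1, 9 of the 10 genes were below Col-0, against 50.5% of the 20323 genes tested, and the exception was SCR. Their median difference of log2(FPKM + 1), phr1 minus Col-0, was -0.23, and that of all genes was 0.00. PER64 (-0.35) and CASP4 (-0.31) were lowest, at the 4.3 and 5.6 percentiles of all genes tested, and MYB36 (-0.03) was nearly level. None of the 10 was 1.5-fold lower (1.41% of all genes) or 1.5-fold higher (2.08%) on FPKM + 1, and for none were the authors' intervals apart (1.25%). The 5 comparisons here share libraries, so their differences are not independent of each other.

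In hho2-1, 7 of the 10 genes were below Col-0, against 49.7% of 20341 genes, with a median difference of -0.16, against 0.00 over all genes. Rescaled to equal sums, the medians were -0.073 and 0.081. ESB1 (-0.43) and CASP1 (-0.35) were among the lowest, at the 2.8 and 4.6 percentiles of all genes. CASP4 followed with -0.25, PER64 with -0.19, CASP2 with -0.12 and CASP5 with -0.10. MYB36 went the other way, 0.38 higher in hho2-1 at the 95.8 percentile, while SGN3 (0.06) and SCR (0.04) were level. Again 0 of the 10 were 1.5-fold lower (1.37% of all genes) or higher (1.06%), and 0 had intervals apart (0.531%).

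The double mutant was set against each single mutant to ask what the second allele adds. Against phr1, 2 of the 10 genes were below, SCR (-0.11) and MYB36 (-0.09), against 51.6% of 20353 genes, and the median difference was 0.19, or 0.095 without the 4 genes that share an interval. CASP1 was 0.29, CASP5 0.23, SGN3 0.22, and CASP4 and ESB1 0.20 higher in hho2phr1. Against hho2-1, 2 of the 10 were below, MYB36 and SGN3, against 49.3% of 20456 genes, and the median difference was 0.07. CASP1 and ESB1 were each 0.40 higher in hho2phr1 than in hho2-1, while MYB36 was at -0.50, the 6.4 percentile of all genes. With FPKM rescaled to equal sums, 6 of the 10 were below hho2-1, against 66.2% of all genes. SCR, CASP2, CASP5 and PER64, at 0.01 to 0.07 as deposited, turned negative. The median of the 10 was then -0.041, and that of all genes had moved to -0.105.

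In neither comparison was a gene of the 10 past 1.5-fold as deposited. Against phr1 the share of all genes was 1.56% lower and 1.96% higher, with 1.09% having intervals apart, and against hho2-1 it was 4.30% lower and 3.79% higher, with 4.01% having intervals apart. For 0 of the 10 genes were the intervals apart in either comparison. Rescaled to equal sums, MYB36 passed 1.5-fold lower in hho2phr1 against hho2-1.

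Set against Col-0, the double mutant was close to level. Of the 10 genes 7 were below Col-0, against 51.3% of 20400 genes, but the median difference was only -0.05 (-0.084 without the 4 genes that share an interval) and the genes lay between -0.19 (PER64) and 0.05. CASP5 (-0.03) and ESB1 (-0.04) were nearest to Col-0, and CASP1 was at 0.05. None was 1.5-fold lower (2.09% of all genes) or higher (3.25%) and none had intervals apart (2.38%). Rescaled to equal sums, the median of the 10 was -0.076 in hho2phr1 and -0.073 in hho2-1, each against Col-0. The medians of all genes were then -0.035 and 0.081.

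**Figure D2:**
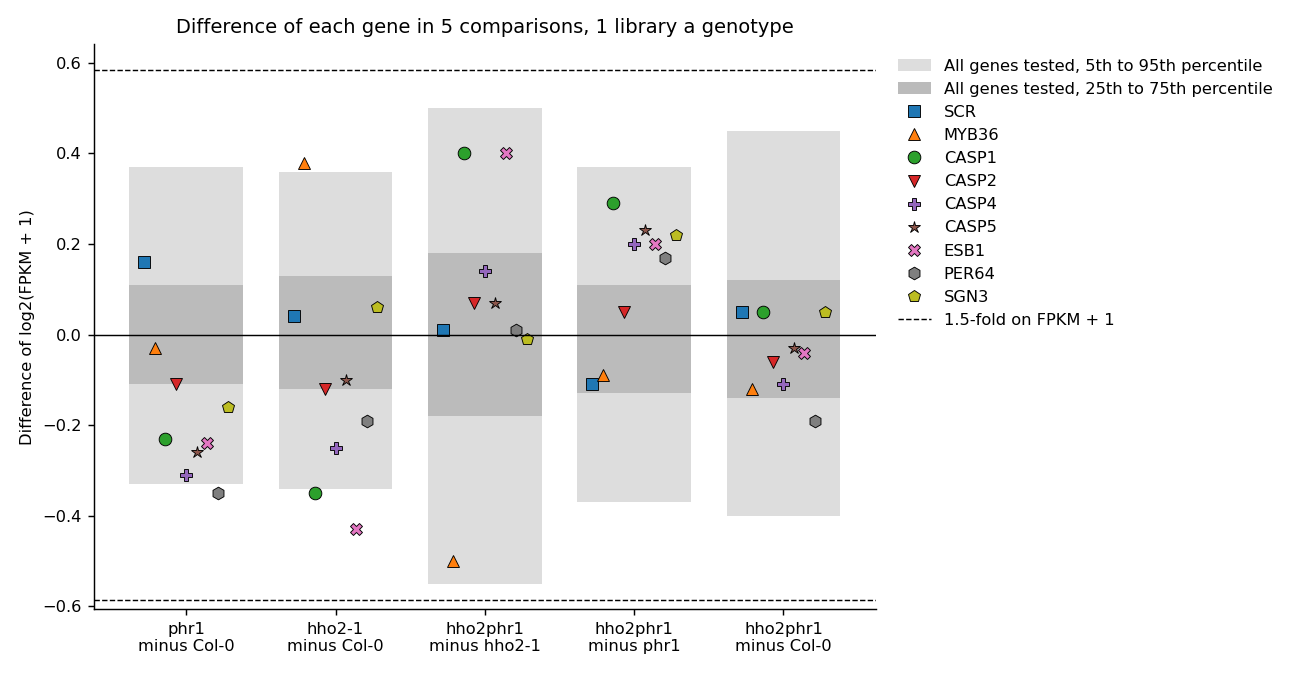
Difference of log2(FPKM + 1) of 9 of the genes (symbols) in the 5 comparisons (x axis), first library minus second, with the 25th to 75th and 5th to 95th percentiles of all genes tested as dark and light grey boxes and the 1.5-fold limits as dashed lines. No gene reaches a dashed line. ESB1 and CASP1 lie below the light box for hho2-1 minus Col-0 and MYB36 above it, and PER64 lies below the light box for phr1 minus Col-0.

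The difference that goes with the hho2 allele was opposite in sign in both PHR1 backgrounds for 9 of the 10 genes, all but SGN3, and for 50.9% of the 20650 genes. For CASP1 it was 0.29 where the phr1 allele was present (hho2phr1 minus phr1) and -0.35 where PHR1 was intact (hho2-1 minus Col-0). For ESB1 the values were 0.20 and -0.43. MYB36 had the reverse pattern, with -0.09 and 0.38. The first difference minus the second had a median of 0.35 over the 10 genes and of 0.00 over all 20650 genes, whose 5th to 95th percentiles ran from -0.56 to 0.49. It was above 0 for 8 of the 10 genes and for 50.5% of all genes. It uses all 4 libraries once each, so a deviation of any 1 of them moves every gene, and the difference was not tested.

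**Figure D3:**
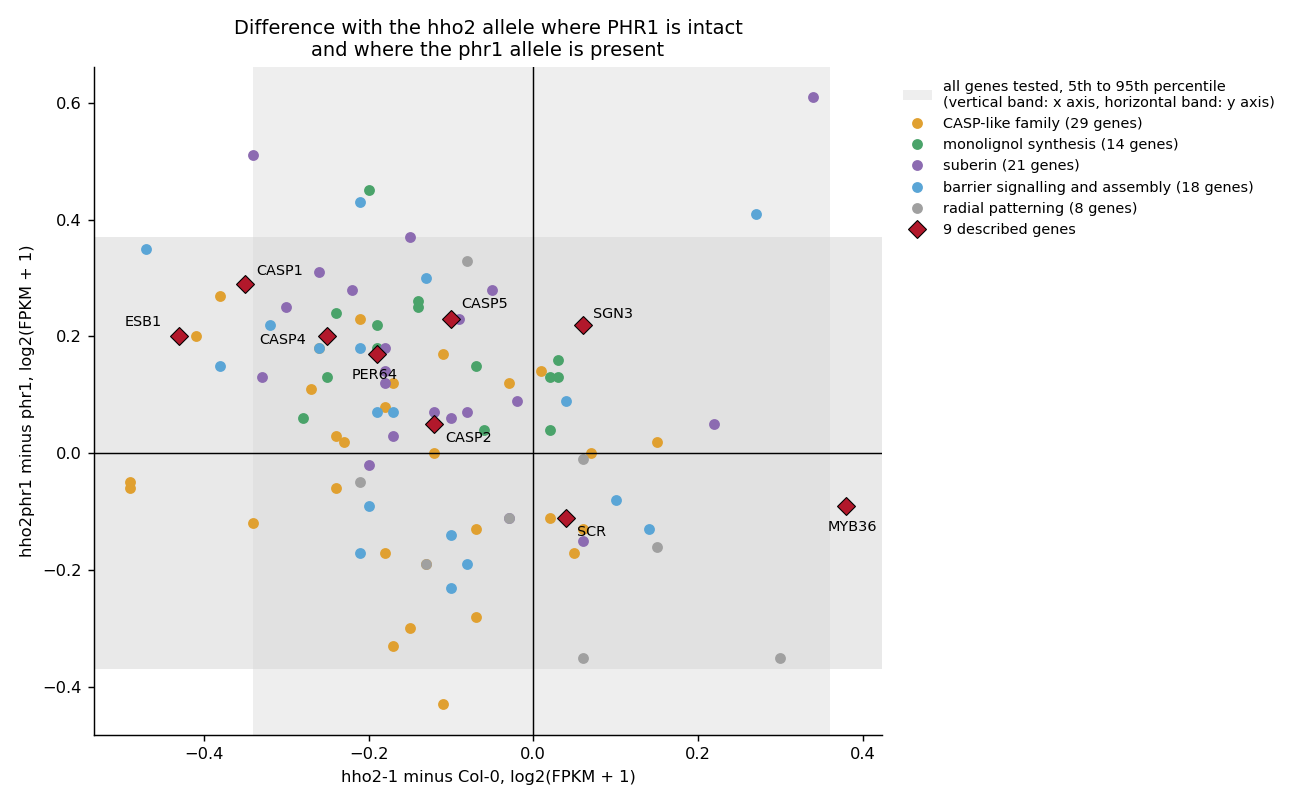
Difference of log2(FPKM + 1) with the hho2 allele where PHR1 is intact (hho2-1 minus Col-0, x axis) against that where the phr1 allele is present (hho2phr1 minus phr1, y axis); red diamonds are 9 of the genes, dots the genes of 5 lists, and grey bands the 5th to 95th percentiles of all genes. CASP1, CASP2, CASP4, CASP5, ESB1 and PER64 lie in the upper left, below 0 in x and above 0 in y.

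Genes around these 10 were described by lists. Of all genes tested, 50.5% were below Col-0 in phr1, 49.7% in hho2-1 and 51.3% in hho2phr1, and 51.6% were below phr1 in hho2phr1. Rescaled to equal sums, these shares were, in the same order, 68.8%, 32.4%, 57.6% and 40.2%. The single highest gene weighs on that scaling. It held 17.2% of the summed FPKM in phr1, 13.6% in hho2phr1, 13.1% in Col-0 and 11.2% in hho2-1. Of 18 further genes of barrier signalling and assembly, 16 were below Col-0 in phr1 and 14 in hho2-1, with median differences of -0.12 and -0.18. By the rule of largest difference between hho2-1 and Col-0, 3 loci annotated as dirigent-like led this list. AT4G13580 had 66.6 FPKM in hho2phr1, 60.1 in phr1, 54.4 in hho2-1 and 71.3 in Col-0. AT3G24020 had 75.5 FPKM in hho2phr1, 64.6 in phr1, 65.9 in hho2-1 and 82.5 in Col-0. Both were lower in the single mutants and nearer Col-0 in the double, as ESB1 was. AT1G07730, at most 1.94 FPKM, was the one gene of the list past 1.5-fold, at -0.88 in phr1 against Col-0, and AT2G16385 was higher in hho2-1 by 0.27. The 3 dirigent-like loci each share an interval with another gene.

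Suberin genes were lower too: in phr1 18 of 20 tested stood under Col-0 (median -0.22), and in hho2-1 18 of 21 did (median -0.15). ABCG6, a transporter of the suberin pathway, had 11.5 FPKM in hho2phr1, 7.81 in phr1, 8.38 in hho2-1 and 10.8 in Col-0. GPAT5, an acyltransferase that makes suberin monomers, had 6.19 FPKM in hho2phr1, 5.04 in phr1, 5.43 in hho2-1 and 6.94 in Col-0. MYB53 differed by -0.33 between hho2-1 and Col-0 and MYB41, a regulator of suberin genes, by 0.34. Past 1.5-fold were the feruloyl transferase ASFT (listed as HHT1), at -0.60 in phr1 against Col-0, and MYB41, at 0.61 in hho2phr1 against phr1, at 1.32 FPKM or less in every library. ASFT was named after its values were seen.

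Genes of monolignol synthesis, which supplies lignin, were below Col-0 for 12 of 14 in phr1 and 10 of 14 in hho2-1, and 14 of 14 were higher in hho2phr1 than in phr1, by a median of 0.16. None of the 14 passed 1.5-fold in any of the 5 comparisons. PAL4, an ammonia-lyase at the pathway's start, had 27.1 FPKM in hho2phr1, 19.6 in phr1, 23.0 in hho2-1 and 26.6 in Col-0. C4H, the hydroxylase that follows, had 195 FPKM in hho2phr1, 178 in phr1, 167 in hho2-1 and 199 in Col-0. Both were lowest in a single mutant. FAH1 and CAD5, enzymes of later steps, differed by -0.24 and -0.28 between hho2-1 and Col-0.

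As deposited, these 3 lists stood nearer to Col-0 in the double mutant than in the single mutants. Below Col-0 were 12 of 18 barrier genes (median -0.09), 15 of 21 suberin genes (median -0.08) and 5 of 14 monolignol genes (median 0.04). Rescaled to equal sums, the medians in hho2phr1 were, in that order, -0.12, -0.11 and 0.01. In hho2-1 they were -0.10, -0.08 and -0.05, and in phr1 -0.20, -0.30 and -0.22. Barrier and suberin genes were then no nearer to Col-0 in the double mutant than in hho2-1. That scaling put the median of all genes at -0.035 in hho2phr1, 0.081 in hho2-1 and -0.082 in phr1. Against phr1, 7 of 18 barrier genes (median 0.08) and 3 of 21 suberin genes (median 0.13) were below in hho2phr1.

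In the radial patterning list 7 of 8 genes in phr1 stood above Col-0 (median 0.19), and 4 of 8 did in hho2-1. SHR, the partner of SCR made in the stele, had 16.5 FPKM in hho2phr1, 19.0 in phr1, 13.3 in hho2-1 and 14.6 in Col-0. SCL3, SCL23 and HSFB4 (SCHIZORIZA) differed by -0.21, 0.15 and 0.30 between hho2-1 and Col-0. None of the 8 passed 1.5-fold in any comparison.

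The wider CASP-like family, 34 genes by RefSeq names, was lower in hho2-1 for 23 of 29 genes tested, with a median of -0.17, but in phr1 for 12 of 29, with a median of 0.05. CASPL1D2 had 75.4 FPKM in hho2phr1, 78.0 in phr1, 53.5 in hho2-1 and 75.7 in Col-0. CASPL1B1 had 105 FPKM in hho2phr1, 91.2 in phr1, 77.7 in hho2-1 and 104 in Col-0. These had their lowest value in hho2-1, as CASP1 and CASP2 did. CASPL2D1 and CASPL1B2 differed by -0.49 and -0.38 between hho2-1 and Col-0. CASPL1C2, named after its values were seen, was the one member past 1.5-fold, at -0.63 in phr1 against Col-0. With libraries rescaled to equal sums, the family's median in phr1 against Col-0 was -0.03.

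Markers of other tissues also differed between the libraries. The summed level of 6 shoot genes, among them the near-identical LHCB1.1 and LHCB1.2, was 3925 FPKM in hho2phr1, 2725 in phr1, 3320 in hho2-1 and 3035 in Col-0. Of these, 5 of 6 were below Col-0 in phr1 and 1 of 6 in hho2-1. In hho2phr1, 4 of 6 were 1.5-fold higher than in phr1, against 1.96% of all genes. The summed level of 6 root hair genes was 812 FPKM in hho2phr1, 906 in phr1, 920 in hho2-1 and 813 in Col-0, with 4 of 6 below Col-0 in phr1 and 2 of 6 in hho2-1. For the 10 genes of the strip it was 293 FPKM in hho2phr1, 260 in phr1, 251 in hho2-1 and 300 in Col-0. The strip sum was thus lowest in both single mutants. CASP1 and ESB1, which each share an interval with another gene, weigh most in it. They had 61.2 and 60.4 FPKM in hho2-1, and 78.3 and 81.8 in Col-0. Gene by gene, hho2-1 was lowest for 4 of the 10, CASP1 and ESB1 among them, and phr1 for 4 others. The root hair sum was higher in both single mutants, but it was carried by PRP1 and PRP3. The root hair list's median difference was -0.08 in phr1 and 0.02 in hho2-1 against Col-0. The 2 cortex loci, AT1G62500 and AT1G09750, summed to 48.1 FPKM in hho2phr1, 61.0 in phr1, 74.2 in hho2-1 and 54.0 in Col-0. Most of this was AT1G09750, at 46.6 to 71.1 FPKM. The order was opposite to that of CASP1, but no other gene of the 10 was highest in hho2phr1. Both cortex loci were 1.5-fold lower in hho2phr1 than in hho2-1, against 4.30% of all genes.

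The 6 xylem genes summed to 140 FPKM in hho2phr1, 152 in phr1, 131 in hho2-1 and 144 in Col-0, all 6 of them below Col-0 in hho2-1. The 4 phloem genes lay between 184 and 201 FPKM in every library, and the 5 root tip genes between 4.83 FPKM in hho2phr1 and 6.95 in phr1. No marker of these lists was at 0 in any library, so RNA of root and of green tissue was present throughout. The part of tissue makeup in the differences of the 10 genes was not tested.

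**Figure D4:**
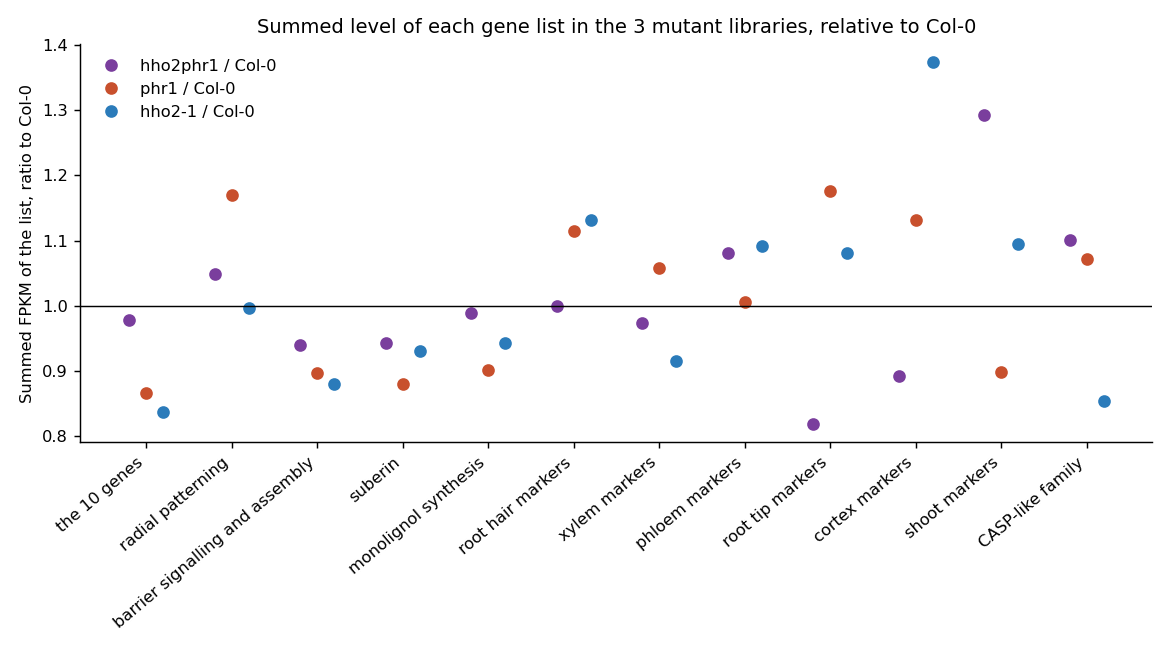
Summed FPKM of each gene list in hho2phr1, phr1 and hho2-1 as a ratio to Col-0 (y axis, not from 0; the line at 1 is Col-0). The 10 genes stand at 0.978, 0.866 and 0.837, for a sum in which CASP1 and ESB1 weigh most. The shoot and cortex markers spread more widely, with 1.29 for shoot markers in hho2phr1 and 1.37 for cortex loci in hho2-1.

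The genes most like the CASP genes were sought among 16477 other genes with at least 5 FPKM in any library. Levels on log2(FPKM + 1) were first centred on each gene's own mean over the 4 libraries. Likeness was the root mean square difference from the mean of the centred CASP profiles. AT1G67800 and AT4G35160 were nearest, both at 0.008. AT4G35160 had 78.4 FPKM in hho2phr1, 68.2 in phr1, 66.9 in hho2-1 and 80.3 in Col-0. Of named genes, TGA9, a bZIP transcription factor, stood at 0.017 and ATG12A, of autophagy and listed as APG12, at 0.019. With 4 libraries such likeness is common: 83 other genes were as near to the profile as CASP4, 750 as near as CASP1 and 1017 as near as ESB1. CASP4 and CASP1 are themselves part of the mean profile, so their nearness is partly built in, while ESB1 is not part of it. MYB36 was far from it, with 14769 genes as near or nearer.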

How the data were processed

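Poly(A)+ RNA was sequenced from 4 libraries made with ScriptSeq v2, 1 per genotype, per the labels' protocols. Reads were aligned with TopHat2 2.0.11 and quantified with Cuffdiff 2.2.1 on TAIR10, per the submitters' processing notes. The deposited values are the authors' FPKM per gene with a 95% interval, per the file headers. Strand, multiply aligned reads and scaling are not given in the sources used here, nor are counts. Columns named WT and dbl were taken as Col-0 and hho2phr1. All 10 genes had the status OK in every library. The values of 1 of the 10 are not reported here, though counts and medians include it.

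Differences are of log2(FPKM + 1) for genes that reached 1 FPKM in either of the libraries compared; this scale understates changes of low genes. 1.5-fold is a difference of 0.585. With 1 library per genotype no test was run. An additive fit was not used, because its 1 residual degree of freedom is the non-additive difference. Only the 1.5-fold calls were checked on simulated data, with changes set well past 1.5-fold. Smaller differences, such as those of the 10 genes, were not part of that check. Relative depth, as used in scaling, came from 951 to 1025 genes with low values per library. Of these, 90.3% to 90.7% had ratios of whole numbers within 0.3%. Members and lists were chosen with earlier results of these data known. Genes named from a list were the 4 with the largest difference between hho2-1 and Col-0, and the 10 nearest the CASP profile could be named. Sequences came from the RefSeq annotation of TAIR10.1, where all 10 genes overlap their own model. Alternatives were a pseudocount of 0.1, no filter or FPKM of at least 5, libraries rescaled to equal sums or by the median of ratios, and leaving out the 4 genes that share an interval, the last chosen after seeing the data. Python 3.11.15, pandas 2.3.3, numpy 2.4.6 and Biopython 1.88 were used.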

Additional observations from a re-analysis of the deposited data

Results flagged for a closer look

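For 9 of the 10 genes, and for 50.9% of all 20650 genes, the difference with the hho2 allele had opposite signs where the phr1 allele was present and where PHR1 was intact, with 1 library per genotype. The first minus the second, on log2(FPKM + 1), was 0.64 for CASP1, 0.63 for ESB1, 0.45 for CASP4, 0.36 for PER64, 0.33 for CASP5 and 0.17 for CASP2. For MYB36 it was -0.47 and for SCR -0.15. The difference between backgrounds was not tested for any of them. CASP1 and ESB1 lay above the 95th percentile of all genes, which is 0.49. CASP1, ESB1 and PER64 share an interval with a gene on the opposite strand, and without the 4 genes that share one the median was 0.25, against 0.35 with all 10.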

How the results depend on the processing

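None of the 50 single-gene differences changed sign with a pseudocount of 0.1, no filter, FPKM of at least 5 or the median of ratios. No count of the 10 genes past 1.5-fold changed with these either. The pseudocount and the filters cannot change a sign, because they leave the order of the values as it is. The median-of-ratios factors were 0.999 to 1.001, so that setting left the values almost as deposited. The unchanged signs are therefore no check of direction. Rescaled to equal sums, 1 gene, MYB36, was 1.5-fold lower in hho2phr1 against hho2-1, and hho2-1 was the lowest library for 2 genes. Without the 4 genes that share an interval, hho2-1 was also lowest for 2, and the medians of hho2phr1 were 0.095 against phr1 and -0.084 against Col-0, against 0.19 and -0.05 with all 10. Equal sums put the median of all genes at -0.105 in hho2phr1 against hho2-1, where 4 gene differences and the median of the 10 changed sign, and at -0.082 and 0.081 in phr1 and hho2-1 against Col-0. The 10 genes' medians then were -0.04, -0.32 and -0.07, against 0.07, -0.23 and -0.16 as deposited, and the share of all genes past 1.5-fold in hho2phr1 against hho2-1 was 6.98% lower and 2.90% higher. The same scaling gave -0.05 for barrier genes and -0.06 for suberin genes in that comparison, both 0.06 as deposited. No paired analysis was possible because each genotype has 1 library. The authors' intervals, 20.9% (ESB1) to 44.0% (PER64) of the value to each side in Col-0, limit what differences of this size can show.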
